A study of Mus musculus with 12 samples.

Results

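Sphingolipids are lipids built on a long-chain amino alcohol, and the expression of 10 genes that make and turn them over was followed in mouse macrophages. The genes were chosen by name: Sptlc1, Sptlc2, Cers2, Cers5, Cers6, Degs1, Ugcg, Sgms1, Asah1 and Smpd1, out of 47937 in the count table, and all 10 were among the 11760 that passed the filter on low counts. Bone marrow cells of C57BL/6 mice had been cultured for 7 days in CSF-1 (20 ng/ml), the growth factor that drives macrophage differentiation, and 12 RNA sequencing libraries were made, 3 for each of 4 groups. One group was left resting (M0). The second received IFNγ at 50 ng/ml together with LPS at 20 ng/ml for 18 h, the third only the inhibitor T863 at 50 μM for 18 h, and the fourth all of these. The labels of M0 without the inhibitor carry no time. T863 blocks DGAT1, the enzyme that joins a fatty acid to diacylglycerol in the last step of triglyceride synthesis, and is called DGAT1i here. In 2 of 3 libraries of M0 with DGAT1i the description numbers the compound T864 or T865, whereas the source name says T863, and T863 was assumed. The inhibitor acts on the enzyme, and no transcript was used here to check that label. The labels do not say whether the 3 libraries of a group came from different animals, and the p-values measure the spread between these libraries, which may be technical.

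Libraries held 4996014 to 6621671 counted reads. Levels are given in CPM, which are counts relative to the library total after scaling by edgeR's TMM factors, and 1 CPM was worth 4.28 to 7.58 reads. TMM factors averaged 1.19 in M0 and 1.14 in M0 with DGAT1i, against 0.860 and 0.855 in the IFNγ + LPS groups without and with DGAT1i. Without these factors the median change of all genes by IFNγ + LPS was -0.46 on the log2 scale instead of 0.01, so changes by IFNγ + LPS are relative to the TMM scale. The 5 activation genes Nos2, Acod1, Il1b, Il6 and Cxcl10 summed to 0.568 to 1.85 CPM over the libraries without IFNγ + LPS and to 11910.3 to 12879.8 CPM in those with it, as labelled. All 8 macrophage markers looked at had reads in every group. Their sum was 13131 to 14358 CPM in M0, 16054 to 18075 CPM in M0 with DGAT1i, 8323 to 8980.3 CPM with IFNγ + LPS and 7923 to 8891 CPM with IFNγ + LPS and DGAT1i. Markers of mast cells and of erythroid cells were at 0, and those of T cells, B cells and fibroblasts summed to at most 2.11 CPM in any library.

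A sphingolipid begins when serine palmitoyltransferase joins serine to palmitoyl-CoA. Ceramide synthases then add a second fatty acid, each with its own preference for chain length, and a desaturase turns the product into ceramide. Ceramide is the branch point: it is glycosylated to glucosylceramide, converted to sphingomyelin, or broken down to sphingosine, and sphingomyelin can be cut back to ceramide. In macrophages these lipids are parts of the plasma membrane and of lysosomes, and ceramides are known to increase after LPS.

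In M0 macrophages the 10 transcripts spanned more than an order of magnitude per length. CPM per kilobase of merged exons (RPKM) was highest for Asah1 (93.3 ± 5.34, mean ± SD, n = 3), the acid ceramidase of lysosomes, followed by Degs1 (77.1 ± 3.78), the desaturase, and Cers2 (56.3 ± 1.79), the ceramide synthase for very long acyl chains. A middle group held Cers5 (19.4 ± 0.252), Sptlc1 (15.6 ± 0.700), Cers6 (14.5 ± 0.415) and Sptlc2 (12.96 ± 0.663). Smpd1 (8.96 ± 0.485), Sgms1 (5.75 ± 0.306) and Ugcg (4.84 ± 0.278) were lowest. Of the neighbours in this order, the libraries of Sptlc1 and Cers6 overlapped. The place of Sgms1 is the least certain, because its merged exons (10546 bases) are far longer than its longest transcript (4036 bases), and with that length it would stand above Smpd1. With IFNγ + LPS the order was different: Asah1 (107 ± 2.86) and Cers2 (69.4 ± 2.36) led, Cers6 (51.4 ± 3.31) was level with Degs1 (50.3 ± 3.45), Ugcg reached 17.2 ± 1.37 and Cers5 fell to 8.22 ± 0.877, while Sgms1 (4.51 ± 0.279) was lowest, and with the longest transcript as length Cers5 would be lowest.

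Stimulation with IFNγ + LPS changed the transcripts of all 10 enzymes. Against M0, 7 of the 10 were higher and 3 were lower by edgeR's quasi-likelihood test (Benjamini-Hochberg adjusted p under 0.05 over 11760 genes), beside 37.1% of all genes higher and 36.2% lower; Cers2, Asah1 and Smpd1, among the 7, were lower with library size alone. The 10 had a median log2 fold change of 0.28, against 0.01 for all genes. Ugcg and Cers6 rose most, 3.56-fold and 3.54-fold, and Cers5 fell most, by 1.24 on the log2 scale. Over 7 other settings of the processing, Ugcg ran from 1.36 to 1.83, Cers6 from 1.35 to 1.82 and Sptlc2 from 0.21 to 0.68. Cers5 ran from -1.71 to -1.24, Degs1 from -1.08 to -0.61 and Sgms1 from -0.82 to -0.35 there. Fewer macrophages and less RNA of a gene per macrophage cannot be told apart in such bulk libraries, and the macrophage marker sums given above differ between these groups. The fall of the sum came mainly from Lyz2 (from 9641 ± 621 to 2956 ± 193 CPM). Csf1r, Cd68, Itgam and Cd14 also had lower means with IFNγ + LPS, while Adgre1 (1316 ± 19.2 to 2706 ± 189 CPM), Mertk and Fcgr1 were higher. Dendritic cell markers summed to 0.133 to 0.835 CPM in M0 and 5.62 to 7.16 CPM with IFNγ + LPS, and neutrophil markers to 24.8 to 29.5 and 14.9 to 23.8 CPM. The part of all these markers in the results was not tested.

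**Figure D1:**
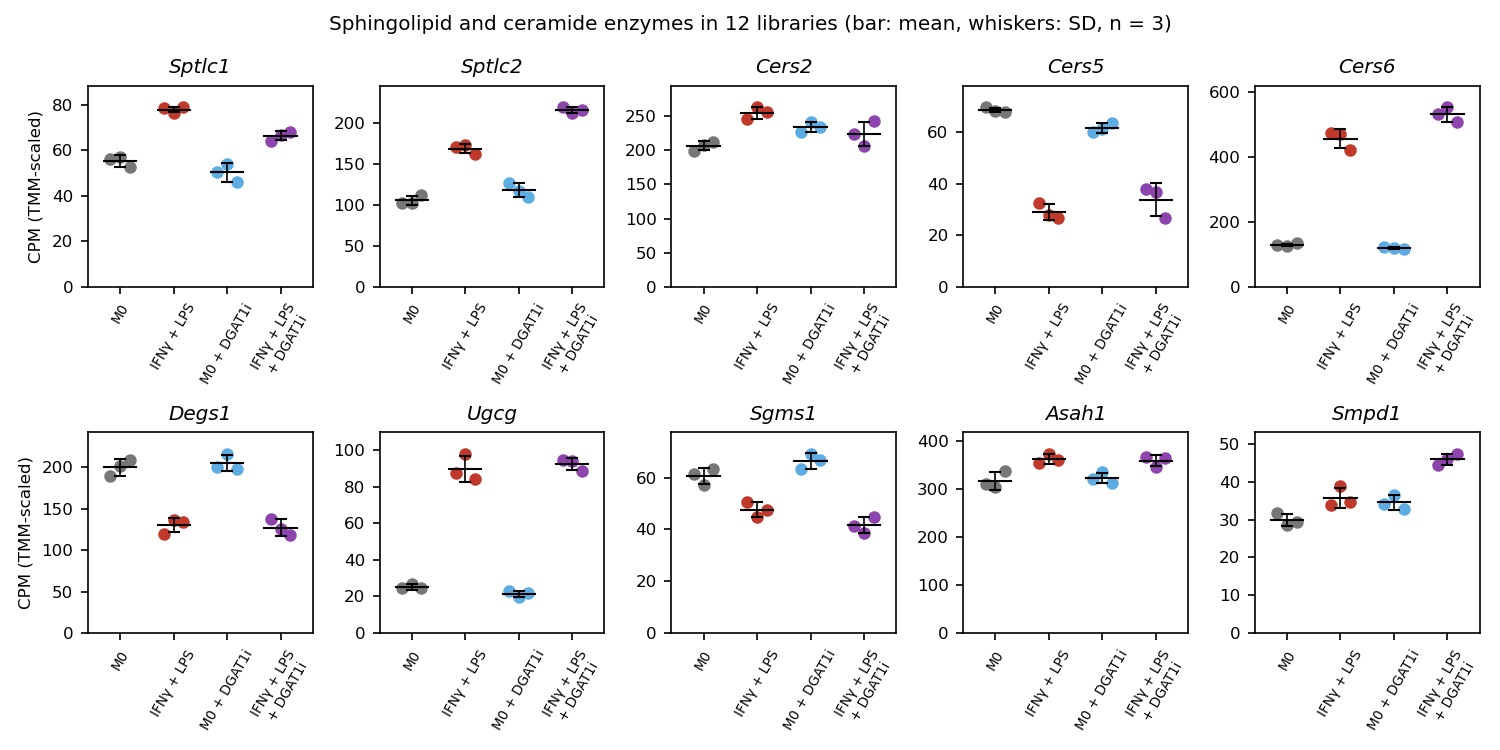
CPM (TMM-scaled, linear axes from 0) of the 10 enzymes in the 12 libraries, 1 panel per gene; each point is a library, horizontal bars are group means and whiskers are SD (n = 3). Cers6 and Ugcg stand far higher in both groups with IFNγ + LPS, and Cers5, Degs1 and Sgms1 stand lower there.

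Both subunits of serine palmitoyltransferase rose. Sptlc1 (ENSMUSG00000021468.7, chr13:53332748-53377397, minus strand), the subunit shared by all forms of the enzyme, was at 56.4, 57.1 and 52.5 CPM in the M0 libraries and at 78.5, 76.5 and 78.9 CPM in those with IFNγ + LPS. The groups did not overlap (log2 fold change 0.49 ± 0.07 (SE), adjusted p = 2.66e-08), but the change rested on the TMM scale: with library size alone it was 0.02. Sptlc2 (ENSMUSG00000021036.10, chr12:87305058-87388355, minus strand), a catalytic subunit, was at 102, 102 and 111 CPM in M0 and at 170.3, 173 and 162 CPM with IFNγ + LPS, again without overlap (log2 fold change 0.68 ± 0.06 (SE), adjusted p = 2.98e-15).

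The 3 ceramide synthases with many reads moved apart. Cers6 (ENSMUSG00000027035.10, chr2:68861441-69114282, plus strand), a synthase for C16 acyl chains, was at 127, 126 and 133 CPM in M0 and at 474, 471 and 422 CPM with IFNγ + LPS. Every stimulated library was more than 3 times as high as every M0 library (log2 fold change 1.82 ± 0.06 (SE), adjusted p = 1.75e-35). Cers5 (ENSMUSG00000023021.15, chr15:99734881-99772885, minus strand), which also makes C16 ceramide, went the other way, from 69.7, 68.3 and 68.1 CPM to 32.6, 27.9 and 26.8 CPM. The 3 stimulated libraries all lay far below M0 (log2 fold change -1.24 ± 0.09 (SE), adjusted p = 3.33e-18). Cers2 (ENSMUSG00000015714.11, chr3:95314791-95323599, plus strand) moved little, from 199.9, 208 and 213 CPM to 246, 263 and 256 CPM, and was higher with IFNγ + LPS on the TMM scale (log2 fold change 0.30 ± 0.06 (SE), adjusted p = 3.17e-06) but lower, by 0.17, with library size alone. Of the exon bases of Cers2, 219 are shared with genes on the opposite strand, 144 of them with 6330562C20Rik and 75 with Setdb1, and it is not certain that the counting used strand. Degs1 (ENSMUSG00000038633.5, chr1:182275772-182282804, minus strand), the desaturase that completes ceramide, fell from 189, 202 and 208 CPM to 120.02, 136 and 134 CPM, without overlap (log2 fold change -0.61 ± 0.06 (SE), adjusted p = 1.81e-13).

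At the branch point after ceramide, Ugcg rose and Sgms1 fell, while of the other genes of the sphingomyelin synthase family Samd8 rose (0.93, adjusted p = 3.19e-15) and Sgms2 did not pass the test (0.03). Ugcg (ENSMUSG00000028381.8, chr4:59189257-59222833, plus strand), glucosylceramide synthase, was at 24.4, 26.9 and 24.4 CPM in M0 and at 87.6, 97.8 and 83.9 CPM with IFNγ + LPS, and no stimulated library came near the M0 range (log2 fold change 1.83 ± 0.08 (SE), adjusted p = 1.78e-27). Sgms1 (ENSMUSG00000040451.17, chr19:32122727-32389714, minus strand), sphingomyelin synthase 1 of the Golgi, was at 61.3, 57.1 and 63.5 CPM and then at 50.5, 44.6 and 47.6 CPM, a smaller fall but without overlap (log2 fold change -0.35 ± 0.08 (SE), adjusted p = 8.85e-05). The enzymes of breakdown in lysosomes rose slightly on the TMM scale. Asah1 (ENSMUSG00000031591.14, chr8:41340197-41374773, minus strand) went from 309, 303 and 337 CPM to 353, 372 and 359 CPM (log2 fold change 0.19 ± 0.05 (SE), adjusted p = 9.66e-04), and with library size alone it was lower by 0.28. Smpd1 (ENSMUSG00000037049.8, chr7:105554360-105558389, plus strand), the acid sphingomyelinase, went from 31.7, 28.5 and 29.5 CPM to 33.9, 38.9 and 34.7 CPM (log2 fold change 0.26 ± 0.09 (SE), adjusted p = 0.0108), was lower by 0.21 with library size alone, and did not pass the test without replicate 2 of IFNγ + LPS (adjusted p = 0.0837).

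The promoters of Cers6 and Ugcg, which rose most, and of Cers5, which fell most, are given as the 250 bases before the start in RefSeq on GRCm38.p6, 5′ to 3′ on the strand of the gene. The RefSeq starts of Ugcg and Cers5 lie inside the gene bounds given above, which are those of GENCODE and begin farther upstream. Capitals mark the E-box CACGTG.
Cers6 (chr2:68861191-68861440, plus strand): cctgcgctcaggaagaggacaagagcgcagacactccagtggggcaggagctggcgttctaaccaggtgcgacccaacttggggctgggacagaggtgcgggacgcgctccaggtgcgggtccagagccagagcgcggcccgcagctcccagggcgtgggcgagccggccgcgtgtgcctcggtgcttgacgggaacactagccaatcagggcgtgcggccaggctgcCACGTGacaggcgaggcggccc
Ugcg (chr4:59189300-59189549, plus strand): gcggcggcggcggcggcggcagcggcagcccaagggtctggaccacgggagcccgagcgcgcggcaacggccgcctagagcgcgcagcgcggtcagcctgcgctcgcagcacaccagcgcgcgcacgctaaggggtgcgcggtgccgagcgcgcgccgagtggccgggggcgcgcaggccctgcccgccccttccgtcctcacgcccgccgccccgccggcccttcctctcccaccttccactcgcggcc
Cers5 (chr15:99772516-99772765, minus strand): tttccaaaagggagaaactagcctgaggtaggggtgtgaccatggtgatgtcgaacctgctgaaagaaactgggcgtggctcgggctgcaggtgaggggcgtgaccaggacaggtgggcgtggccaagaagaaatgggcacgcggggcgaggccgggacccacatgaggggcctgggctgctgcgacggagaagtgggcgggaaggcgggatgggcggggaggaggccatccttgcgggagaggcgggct
All 3 are rich in G and C: the share is 70.4% in Cers6, 80.4% in Ugcg and 65.6% in Cers5. Ugcg holds 43 CpG dinucleotides in these bases, Cers6 holds 23 and Cers5 holds 16. Windows from 250 bases before to 50 after the start were searched on both strands for 4 motifs, in 13 windows of 9 of the 10 genes (Asah1 had no entry) and in 32851 windows of all genes. The interferon-γ activated site TTCNNNGAA was in 8.3% of all windows and in 1 of the 2 windows of Cers2, and the interferon-stimulated response element, written as 2 GAAA runs with 2 bases between them, was in 3.44% and in no window of the 9 genes. A κB motif was in 8.46% of all windows and in that of Degs1. The E-box was in 7.15% of all windows and in those of Cers6 (from base -22) and Degs1 and 1 of the 2 of Cers2. In the windows of Ugcg and Cers5 none of the 4 was found. A match of letters is a description and not a site of binding.

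Set against each other per length, Cers6 took a larger share of the ceramide synthase transcripts with IFNγ + LPS, and Cers2 and Cers5 smaller ones. Each synthase is given as its share of the summed RPKM of Cers1 to Cers6. Cers6 made up 15.99%, 15.6% and 16.1% in the 3 M0 libraries and 41.1%, 39.96% and 38.02% with IFNγ + LPS, so that its mean rose from 15.9% ± 0.276 (SD, n = 3) to 39.7% ± 1.57. Cers5 went from 21.3% ± 0.672 to 6.36% ± 0.642, and Cers2, the most abundant in M0, from 61.8% ± 0.833 to 53.7% ± 2.09. The level of Cers2 itself was higher with IFNγ + LPS on the TMM scale and lower with library size alone, as given above, so its smaller share is relative to Cers6. No share overlapped between these groups. With DGAT1i in M0 the shares were 67.02% ± 0.694 for Cers2, 18.3% ± 0.518 for Cers5 and 13.9% ± 0.594 for Cers6, and with both treatments they were 46.7% ± 3.42, 7.31% ± 1.37 and 45.7% ± 2.32. Only with both treatments did Cers6 exceed Cers2 in a library, in replicate 2 (48.2% against 43.6%). With the longest transcript as the length Cers2 led in that library as well (RPKM 93.4 against 78.4). The mean shares with both treatments were then 53.5% for Cers2 and 39.8% for Cers6. Of 12 comparisons of a share between groups, 11 reached an exact permutation p of 0.1 (two-sided, adjusted p = 0.109), the smallest that 3 against 3 libraries allow, and Cers5 with IFNγ + LPS against both treatments overlapped (exact p = 0.4). Cers4 had a mean share below 1% in every group, and Cers1 and Cers3 had between 0 and 6 reads per group.

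**Figure D2:**
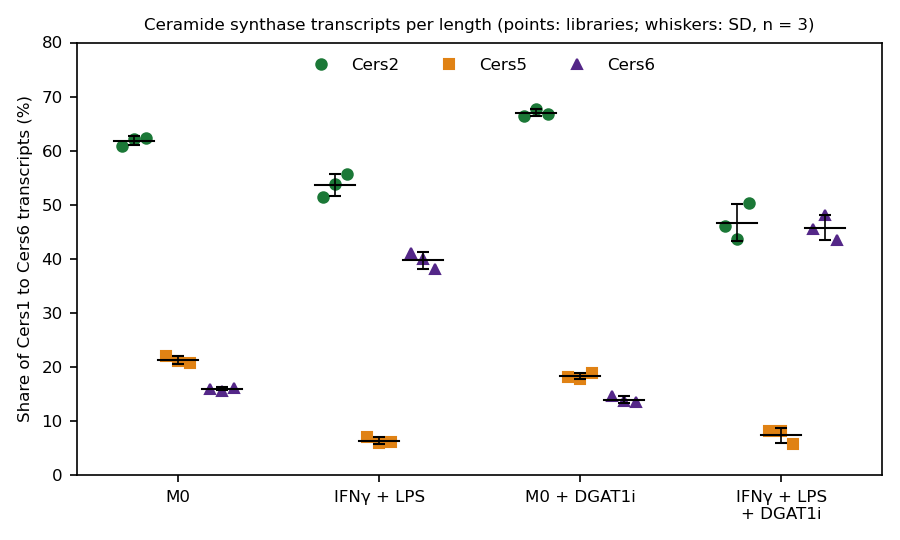
Shares (percent, linear axis from 0) of Cers2, Cers5 and Cers6 in the summed RPKM of the 6 ceramide synthases; points are libraries, bars group means and whiskers SD (n = 3). Cers6 goes from 15.9% in M0 to 39.7% with IFNγ + LPS and 45.7% with DGAT1i added.

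DGAT1i changed 5 of the enzymes in stimulated macrophages, by at most 0.36 on the log2 scale. Against IFNγ + LPS alone, 3 of the 10 were higher and 2 lower, beside 13.5% of all genes higher and 16.3% lower, and the median log2 fold change was 0.01 for the 10 and -0.01 for all genes. The 2 subunits of serine palmitoyltransferase parted. Sptlc2 was at 219, 212 and 215 CPM with both treatments, above all 3 libraries with IFNγ + LPS alone (log2 fold change 0.35 ± 0.06 (SE), adjusted p = 2.40e-06). Sptlc1 was at 64.2, 66.5 and 68.2 CPM, below all 3 (log2 fold change -0.23 ± 0.08 (SE), adjusted p = 0.0141), a call that was lost without replicate 1 of the group with both treatments (adjusted p = 0.0519). Cers6 rose further, to 533, 552 and 507 CPM, again without overlap (log2 fold change 0.22 ± 0.05 (SE), adjusted p = 7.99e-04). Cers2 was lower, at 224, 207 and 243 CPM (log2 fold change -0.19 ± 0.06 (SE), adjusted p = 0.00937), and did not pass without replicate 2 of that group (adjusted p = 0.108). Smpd1 was at 44.5, 46.1 and 47.4 CPM, above every library with IFNγ + LPS alone (log2 fold change 0.36 ± 0.09 (SE), adjusted p = 0.00269).

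The other 5 did not pass the test. Cers5 was at 38.1, 36.9 and 26.6 CPM, with replicate 3 well below the other two and slightly below all 3 libraries of IFNγ + LPS alone (log2 fold change 0.23 ± 0.11 (SE), adjusted p = 0.099). Without that library Cers5 was higher (log2 fold change 0.37, adjusted p = 0.00871), and likewise without replicate 1 of IFNγ + LPS (0.31, adjusted p = 0.0452). Sgms1 was at 41.4, 38.6 and 44.8 CPM and overlapped with IFNγ + LPS alone (log2 fold change -0.19 ± 0.09 (SE), adjusted p = 0.097). Degs1 (95% interval -0.17 to 0.10 on the log2 scale), Ugcg (95% interval -0.11 to 0.18) and Asah1 (95% interval -0.12 to 0.09) had differences close to 0, and their libraries overlapped.

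The 8 neutrophil markers moved with this comparison. They summed to 60.3 to 76.4 CPM with both treatments and to 14.9 to 23.8 CPM with IFNγ + LPS alone, mainly from S100a8 (34.5 ± 6.26 against 9.13 ± 1.19 CPM), S100a9 (25.8 ± 7.18 against 7.78 ± 2.97 CPM) and Ngp (9.18 ± 1.56 against 1.35 ± 0.992 CPM). With both treatments 5 of the 8 had reads, and with IFNγ + LPS alone 4 of the 8 did. Ly6g, Retnlg and Elane were at 0 reads in both groups. The 4 dendritic cell markers summed to 1.04 to 1.4 CPM with both treatments and to 5.62 to 7.16 CPM with IFNγ + LPS alone, mainly from Xcr1. The macrophage marker sums overlapped between these groups, as given above, but single markers differed. Adgre1 (2706 ± 189 against 2114 ± 218 CPM), Itgam (130 ± 10.9 against 85.4 ± 2.69 CPM) and Fcgr1 (857 ± 59.1 against 709 ± 35.3 CPM) had lower means with both treatments. Cd68 had a higher one (631 ± 56.6 against 878 ± 32.3 CPM), and Csf1r, Mertk, Lyz2 and Cd14 had slightly higher ones. The part of these markers in the results was not tested.

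In M0 macrophages DGAT1i moved 2 of the 10 enzymes past the test, both higher, beside 11% of all genes higher and 13.4% lower, and the median log2 fold change was 0.03 for the 10 and 0.00 for all genes. Cers2 was at 228, 242 and 235 CPM, above the 3 M0 libraries (log2 fold change 0.18 ± 0.05 (SE), adjusted p = 0.00952). Sptlc2 was at 126, 117 and 109.7 CPM and overlapped with M0 (log2 fold change 0.16 ± 0.06 (SE), adjusted p = 0.0394). Both calls depended on single libraries. That of Cers2 was lost without replicate 1 of M0 (adjusted p = 0.0693) or replicate 2 of M0 with DGAT1i (adjusted p = 0.0649), and that of Sptlc2 without replicate 1 or 2 of either group (adjusted p between 0.084 and 0.268). With DESeq2 only Cers2 was called, and with library size alone neither was, while Sptlc1 (-0.198), Cers5 (-0.211), Cers6 (-0.184) and Ugcg (-0.287) were called lower. On the TMM scale Cers5 at 60.04, 61.3 and 63.9 CPM, Cers6 at 121, 118 and 115 CPM and Ugcg at 22.7, 19.7 and 22.04 CPM each lay below all 3 M0 libraries. Their differences did not pass the test, with adjusted p = 0.145 for Cers5, 0.114 for Cers6 and 0.0828 for Ugcg. Smpd1 at 34.3, 36.6 and 32.9 CPM lay above M0 and did not pass either (log2 fold change 0.21 ± 0.09 (SE), adjusted p = 0.0824). Sptlc1 at 50.6, 54.1 and 46.1 CPM, Degs1 at 201, 216 and 198 CPM, Sgms1 at 63.2, 69.1 and 66.8 CPM and Asah1 at 320.4, 335 and 312 CPM overlapped with M0. The macrophage markers summed higher with DGAT1i, as given above, mainly from Lyz2, while Adgre1, Csf1r and Cd14 had lower means with it; the neutrophil markers summed to 17.04 to 23.8 CPM with it and 24.8 to 29.5 CPM without, and their part in these results was not tested.

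**Figure D3:**
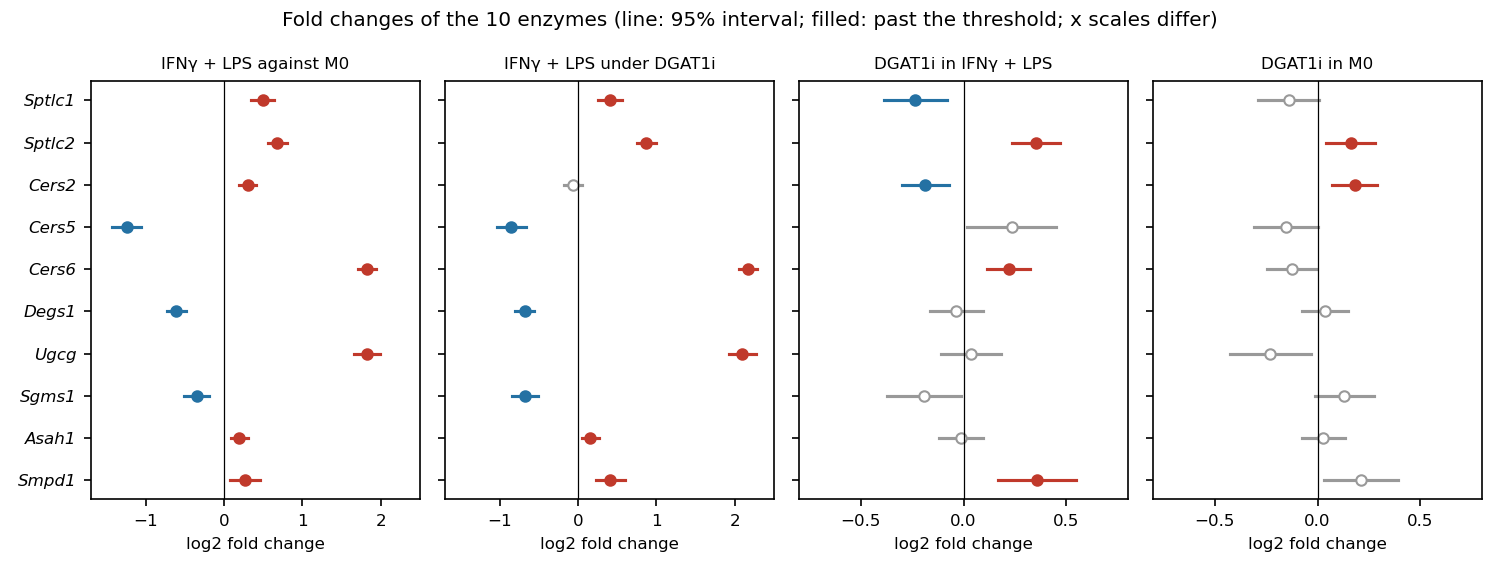
Log2 fold changes of the 10 enzymes in 4 comparisons, as points with 95% intervals from edgeR; red is higher, blue is lower and open grey did not pass the test. The 2 left panels run from -1.7 to 2.5 and the 2 right panels from -0.8 to 0.8, so that the IFNγ + LPS changes of Cers6 and Ugcg are far larger than any change by DGAT1i.

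Whether the inhibitor acted differently in stimulated and in resting macrophages was tested as the difference between both responses. For 4 of the 10 it differed, in 2 upwards (8.66% of all genes) and in 2 downwards (9.8% of all genes). Cers2 was higher with DGAT1i in M0 and lower with it after IFNγ + LPS, and the responses differed by -0.37 ± 0.08 on the log2 scale (adjusted p = 3.94e-04). For Cers6 the values were -0.13 in M0 and 0.22 after IFNγ + LPS, a difference of 0.35 ± 0.08 (adjusted p = 8.04e-04). Both held with each library left out in turn. Those of Cers5 (0.39 ± 0.13, adjusted p = 0.0322) and Sgms1 (-0.32 ± 0.11, adjusted p = 0.039) did not: Cers5 failed the test in 7 of 12 such fits (without replicate 1 of M0, replicates 2 or 3 of IFNγ + LPS, or replicates 1 or 2 of either group with DGAT1i, adjusted p 0.058 to 0.147). Sgms1 failed in 8 (without replicates 1 or 2 of M0 or of both treatments, 1 or 3 of IFNγ + LPS, or 2 or 3 of M0 with DGAT1i, adjusted p 0.0538 to 0.117). Sptlc2, called higher by DGAT1i in both states, did not pass this test (0.19 ± 0.08, adjusted p = 0.103), but did without replicate 1 of M0 with DGAT1i (adjusted p = 0.0473) and with library size alone (0.24, adjusted p = 0.0318).

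With DGAT1i present throughout, IFNγ + LPS moved 6 of the 10 up and 3 down, beside 35.3% of all genes up and 35.3% down; with library size alone Asah1, among the 6, was lower (-0.27), and Sptlc1 (-0.0198) and Smpd1 (-0.0096) were not called. Asah1 was not called with no filter on low counts (0.10, adjusted p = 0.179). Neutrophil markers went from 17.04 to 23.8 CPM up to 60.3 to 76.4 CPM between these groups. Dendritic cell markers went from 0.264 to 0.568 CPM up to 1.04 to 1.4 CPM. The macrophage markers summed lower with IFNγ + LPS, as given above, mainly from Lyz2. Csf1r, Cd68 and Itgam also had lower means, while Adgre1, Mertk, Fcgr1 and Cd14 had higher ones. The part of these markers was not tested. The comparison without DGAT1i is made on other libraries, and the values stand side by side as follows. Cers6 changed by 2.17 ± 0.06 with DGAT1i and 1.82 ± 0.06 without it, and Ugcg by 2.10 ± 0.09 and 1.83 ± 0.08. The difference of Ugcg between both states was not called (adjusted p = 0.127). Sgms1 changed by -0.68 ± 0.08 with DGAT1i and -0.35 ± 0.08 without. Cers5 changed by -0.86 ± 0.09 and -1.24 ± 0.09. Cers2 was the 1 gene of the 10 not called with DGAT1i present (log2 fold change -0.07 ± 0.06 (SE), adjusted p = 0.289), and with library size alone it was called lower (-0.49, adjusted p = 4.45e-11).

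The other genes of sphingolipid metabolism fell more often than they rose with IFNγ + LPS. Of 55 genes listed beside the 10, 39 had enough reads, 7 had 0 reads, and 11 rose and 19 fell, beside 37.1% of all genes higher and 36.2% lower, with a median of -0.25 (all genes 0.01). Of the 4 regulators of serine palmitoyltransferase with enough reads, 2 fell and 0 rose. Sptssa, the small subunit that raises the activity of serine palmitoyltransferase, fell by 2.51 on the log2 scale, from 117 ± 8.88 CPM to 20.4 ± 3.58 CPM (adjusted p = 2.56e-30). Of 6 other genes of ceramide synthesis and 4 other ceramidases listed, 2 each had enough reads, and these (Kdsr, the reductase, at -1.46 and Cers4 at -2.03, and Asah2 at -0.54 and Acer3 at -0.18) fell. Among 9 genes of transfer and conversion, 4 rose and 3 fell. St3gal5, which makes the ganglioside GM3 downstream of Ugcg, rose 8.51-fold, from 64.6 ± 4.43 CPM to 549 ± 17.4 CPM (adjusted p = 4.47e-45). Between Ugcg and St3gal5, where galactose is added, no common direction was seen in the 2 galactosyltransferases, B4galt5 at 1.05 and B4galt6 at -2.17, both past the test.

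The counts of the other classes stand beside the same 37.1% of all genes higher and 36.2% lower, and with so few genes a class is only described. Among 6 sphingomyelinases and related genes, 1 rose and 2 fell. Smpdl3b, a membrane-bound relative of Smpd1, rose from 11.5 ± 2.76 to 68.7 ± 4.16 CPM (log2 fold change 2.57, adjusted p = 2.26e-24). Smpd3, the neutral sphingomyelinase 2 and 1 of the 2 that fell, had 419 reads over the 3 M0 libraries and 6 over those with IFNγ + LPS. It passed the filter through the groups without IFNγ + LPS, which tied its direction to the filter. Its log2 fold change of -5.59 is a fitted value against 6 reads, and its call is not used as support. Of 10 genes that break down glycosphingolipids, 4 rose and 6 fell, with Gla (α-galactosidase) at 1.29 and Galc (galactosylceramidase) at -1.83. Of 6 sphingosine 1-phosphate genes, 2 rose and 2 fell. S1pr1, a receptor, went from 1706 reads to 19 (log2 fold change -6.00, adjusted p = 1.75e-27).

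**Figure D4:**
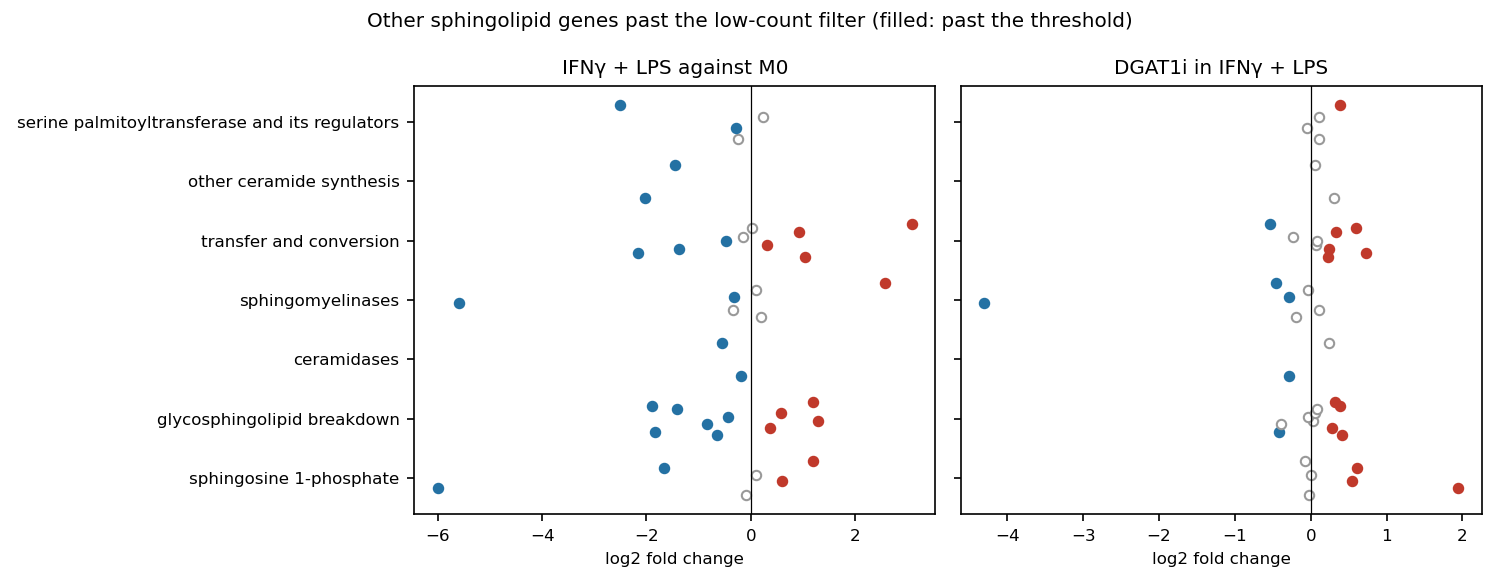
Log2 fold changes of the 39 other sphingolipid genes, 1 point per gene in 7 classes, for IFNγ + LPS against M0 (left) and DGAT1i in IFNγ + LPS (right; x scales differ); red is higher, blue is lower, open grey did not pass. S1pr1 and Smpd3 lie farthest left and St3gal5 farthest right on the left panel; the point of Smpd3 on the right panel is a fitted value against a group with 0 reads.

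With DGAT1i in stimulated macrophages, 13 of these 39 genes were called higher and 6 lower, beside 13.5% and 16.3% of all genes (median 0.08, all genes -0.01). S1pr1 rose from 19 to 66 reads over 3 libraries (log2 fold change 1.95 ± 0.38 (SE), adjusted p = 8.93e-05), B4galt6 by 0.73 and Sgpp1, a sphingosine 1-phosphate phosphatase, by 0.61. St3gal5 (-0.53) and Smpdl3b (-0.46) fell. Of the 6 called lower, Smpd3 is not read as a change: it had 0, 3 and 3 reads with IFNγ + LPS alone and 0 with both treatments, and it passed the filter through the groups without IFNγ + LPS. In M0 macrophages DGAT1i raised 10 and lowered 10, beside 11% and 13.4% of all genes (median -0.01, all genes 0.00). These 20 calls were 13 without replicate 2 of M0 with DGAT1i and 11 with DESeq2. No share of all genes is given for these other fits. Samd8 (0.71) and Sgms2 (0.56), both of the sphingomyelin synthase family, and Smpdl3a (0.54) rose most, beside 0.13 for Sgms1 (not called). Smpd3 (-1.07) and Smpdl3b (-0.64) fell most.

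With DGAT1i present throughout, IFNγ + LPS raised 12 of the 39 and lowered 20, beside 35.3% of all genes each way (median -0.31, all genes -0.01). St3gal5 (2.95), Smpdl3b (2.75) and B4galt5 (1.30) rose most. Smpd3 went from 205 reads to 0, at least 42.99-fold lower with a floor of 3 reads for the group at 0. It passed the filter through the groups without IFNγ + LPS, which tied its direction to the filter. Among those that fell, S1pr1 (-4.25) and Galc (-2.05) followed. The DGAT1i responses of 7 of the 39 differed upwards and those of 4 downwards between both states, beside 8.66% and 9.8% of all genes.

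The 3 enzymes with the widest range of group means on the log2 CPM scale were Cers6 (2.17), Ugcg (2.08) and Cers5 (1.23), and Asah1 had the narrowest (0.19). The genes whose log2 CPM followed them most closely over the 12 libraries were Srgn, Pacsin1 and Sppl2a for Cers6 (Pearson's r = 0.998 each), Ccl2 (0.998), Trim25 and Ube2z (0.997 each) for Ugcg, and Itga8 (0.99), Cltc and Zfp367 (0.987 each) for Cers5. Pacsin1 was at 0 CPM in both groups without IFNγ + LPS, and Itga8 had means of 0.07 and 0.21 CPM in those with it. On that side both genes stood at or near the floor. The libraries fall into those with and without IFNγ + LPS, which most genes in such a list share, and these correlations are a description.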

How the data were processed

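The authors deposited raw read counts per gene for 12 libraries, without normalization, from the pipeline of their institute; the submitters' processing notes name GRCm38 and DESeq2. For the aligner, the counting tool and the annotation release nothing is given in the sources used here. Per the deposited labels a NEBNext kit was used, whereas the paper's methods name TruSeq stranded mRNA, so that strand-specific counting is uncertain. Groups were taken from the deposited labels. Of 47937 identifiers, 47310 matched GENCODE M21 on GRCm38 without their version and 39192 with it (7 of the 10 members), and symbols, positions and merged exon lengths were taken from it.

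Counts were analysed with edgeR 4.0.16 in R 4.3.3: filterByExpr (11760 genes kept), TMM, 1 mean per group over all 12 libraries, glmQLFit (robust), the quasi-likelihood test and Benjamini-Hochberg adjustment over all genes tested, at 0.05. The common biological coefficient of variation was 0.0507. RPKM was CPM per kilobase of merged exons. Replicates of a group differed by 1.93 to 4.06 times counting noise (chi-square per gene). Floors cover counting error only.

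The 10 members and all lists were chosen with earlier results of these data known. Named genes were the members; per comparison the 3 largest rises and falls among the other sphingolipid genes past the threshold at an average log2 CPM of at least 2; the 3 genes most like each of the 3 members of widest range; and markers where a label or a shift needed them. Kdsr, Cers4, Asah2 and Acer3, and for IFNγ + LPS against M0 also Samd8, Sgms2, B4galt5, B4galt6 and Galc, were named after their values were seen. Of the genes that this rule names, 1 is not reported here. Alternatives were RLE factors or library size only, no filter or a mean CPM of at least 1, DESeq2 1.42.0, fits of only the libraries compared, a replicate block, an adjusted p under 0.1, each library left out, and the length of the longest transcript. The edgeR script was tested on simulated data. A BLAST search found no other gene that covers 5% or more of a member's longest transcript at 95% identity. Promoters came from RefSeq (GRCm38.p6). Python 3.11.15 and matplotlib 3.10.9 drew the figures.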

Additional observations from a re-analysis of the deposited data

Results flagged for a closer look

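For 4 of the 10 enzymes the DGAT1i response in IFNγ + LPS differed from that in M0 by edgeR's test of the difference itself, 2 upwards and 2 downwards, beside 8.66% and 9.8% of all genes. The response in IFNγ + LPS minus that in M0 was -0.37 for Cers2, 0.39 for Cers5, 0.35 for Cers6 and -0.32 for Sgms1, on the log2 scale. In Cers2 the response was 0.18 in M0 and -0.19 after IFNγ + LPS, both past the test, but the call in M0 was lost without replicate 1 of M0 (adjusted p = 0.0693), without replicate 2 of M0 with DGAT1i (0.0649) or with library size only (0.0892), and that after IFNγ + LPS without replicate 2 of both treatments (0.108). In Cers6 it was -0.13 (not called) and 0.22 (called), and in Cers5 -0.15 and 0.23, in Sgms1 0.13 and -0.19, none of these 4 called on its own. Of 12 fits with a library left out, the difference of Cers5 did not pass in 7 and that of Sgms1 in 8. With DESeq2 the differences of Cers5 (adjusted p = 0.0658) and Sgms1 (adjusted p = 0.128) did not pass, nor did Sgms1 with RLE (adjusted p = 0.0529) or library size only (adjusted p = 0.0915), or Cers5 with no filter (adjusted p = 0.076).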

How the results depend on the processing

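Of 340 values of the 10 enzymes under other settings, 311 kept their direction and side of the threshold, 12 lost and 6 gained the call and 11 turned; of 600 with a library left out, these were 565, 24, 3 and 8. With library size only in place of TMM, Cers2 (-0.17), Asah1 (-0.28) and Smpd1 (-0.21) turned for IFNγ + LPS against M0, Sptlc1 (-0.0198), Asah1 (-0.27) and Smpd1 (-0.0096) for IFNγ + LPS under DGAT1i, Degs1 (-0.0216) and Asah1 (-0.0305) for DGAT1i in M0, and Asah1 (0.0101) for the difference of responses; it leaves 2340 genes higher and 7002 lower by IFNγ + LPS against M0 in place of 4361 and 4254, and 2333 and 6799 under DGAT1i in place of 4152 and 4151. For DGAT1i in M0 it gave 885 and 2092 in place of 1298 and 1571, for the difference 1229 and 882 in place of 1019 and 1152. Values near 0 also turned for DGAT1i in IFNγ + LPS: Ugcg with no filter (-0.0014) and Asah1 with only the libraries compared (0.0072). In M0, DGAT1i changed 1 of the 10 with RLE, no filter or DESeq2, and 4 with library size only or an adjusted p under 0.1; DESeq2 called 11 of the 39 other genes there, and 2 of the 10 for the difference. The cause was not tested. Of the settings in this paragraph, counts of all genes are given for library size only.

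With a library left out, the number called of the 10 was 0 to 2 for DGAT1i in M0 and 2 to 4 for the difference, and that of the other 39 was 13 to 21 for DGAT1i in M0 (lowest without replicate 2 of M0 with DGAT1i). Over these fits, all genes called numbered 2270 to 3017 for DGAT1i in M0 and 1881 to 2160 for the difference. For DGAT1i in IFNγ + LPS, Degs1 ran from -0.0999 to 0.00815, Ugcg from -0.0154 to 0.1004 and Asah1 from -0.0331 to 0.00928; for DGAT1i in M0, Degs1 ran from -0.00339 to 0.0662 and Asah1 from -0.00522 to 0.0736.

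Per length of the longest transcript, shares were 67.9%, 60.3%, 72.6% and 53.5% for Cers2 (M0, IFNγ + LPS, M0 with DGAT1i, both), 13.3%, 33.9%, 11.5% and 39.8% for Cers6, and 17.999%, 5.50% and 15.2% for Cers5 in the first 3.

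No strong pairing by replicate number was seen: 0 of 18 pairs with the same number had deviations correlated over 0.1 (r -0.022 to 0.069). Pairs with other numbers had r -0.058 to 0.038, and 2 libraries correlated best with their own number in every other group. Between IFNγ + LPS alone and both treatments, r was 0.069, 0.039 and 0.036 for the same numbers and at most 0.02 for other numbers. These values do not settle whether libraries were weakly paired. With a replicate block, 10, 5, 2, 9 and 4 of the 10 were called in the 5 comparisons, in the order that follows. Of all 11760 genes, 8635 were called for IFNγ + LPS against M0, 3568 for DGAT1i in IFNγ + LPS and 2959 for DGAT1i in M0. For IFNγ + LPS under DGAT1i 8310 were called, and for the difference of responses 2268. At this depth the ceramide synthases Cers1 and Cers3 had a handful of reads, and whether more depth would raise them was not tested.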
